A study of Bos taurus with 18 samples.

Results

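The genes described here are the 9 that mark the basal layer of a stratified epithelium and build its anchor to the basement membrane: the keratins KRT5, KRT14 and KRT15, the transcription factor TP63, the hemidesmosome genes COL17A1, ITGA6 and ITGB4, and the laminin chain genes LAMA3 and LAMB3. They were found by symbol in the table of read counts, where each of the 9 matched 1 row of 27270, and all 9 were among the 22202 genes with enough reads to be tested. RNA was sequenced from rumen papillae, the small projections that line the cattle forestomach. The donors were 9 non-lactating Holstein cows with a rumen cannula, 4 of them given a supplement that the labels call only PHY and 5 of them controls, and every cow was biopsied on forage and later on grain. The 18 libraries form 4 groups: grain_PHY (n = 4) and grain_control (n = 5), on a high-grain diet of 65% concentrate, and forage_PHY (n = 4) and forage_control (n = 5), on a diet of 100% forage. The labels do not say whether PHY was already given when the forage biopsies were taken, and they tie no library to a cow. Libraries of the same cows were therefore treated as independent, and p-values measure only the spread between libraries.

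Basal cells divide and feed the layers above them. In human and mouse skin, KRT5 and KRT14 pair into the intermediate filaments of these cells, KRT15 is a further keratin of the same layer, and TP63 encodes p63, the transcription factor that maintains basal identity and stratification. The hemidesmosome clamps the filaments to the basement membrane. Its core is integrin α6β4, encoded by ITGA6 and ITGB4, together with collagen XVII, encoded by COL17A1. Outside the cell the integrin binds laminin-332, which holds the chains encoded by LAMA3 and LAMB3. The rumen wall carries a keratinised stratified epithelium of this type, which absorbs fermentation acids.

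Levels are given as CPM (reads scaled to a common library size) after edgeR's TMM scaling, in which a factor for each library corrects its total for composition. CPM is not corrected for gene length, so levels are compared between libraries and not between genes. Totals ran from 3953060 reads in grain_PHY 1 to 34471682 in forage_PHY 2. Totals were lower on grain, with a grain to forage ratio of geometric means of 0.470 (exact two-sided permutation within arm, p = 0.00374). Reads were also summed over 144 olfactory receptor genes, which few cell types transcribe. Here and below, olfactory receptor CPM is this sum scaled to total reads without the TMM factor, unlike the gene levels. It had a grain to forage ratio of 3.0 (p = 0.00227 by the same exact permutation test). That ratio is therefore not on the scale of the gene levels, and the ratio after TMM scaling was not taken. The 3 shallowest libraries were grain_PHY 1, grain_control 1 with 5433497 reads and grain_control 4 with 9944586 reads, and TMM factors ran from 0.709 to 2.35, the highest in grain_PHY 1. The fewest reads on any of the 9 genes in any library were 360, for LAMB3 in grain_PHY 1. Of the keratins listed for simple epithelia, KRT8 ran from 1.09 to 26.9 CPM, KRT18 from 0.368 to 4.42 CPM and KRT19, which stratified epithelia can also express, from 28.2 to 137 CPM over the libraries.

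Grain libraries had lower mean levels of all 9 genes than forage libraries under this scaling. The fitted differences ran from −0.45 for KRT14 to −0.72 for ITGB4 on the log2 scale, and 3 of the 9 passed the test: ITGB4, TP63 and COL17A1. The other 6 did not. An unadjusted p under 0.05 was reached by 7 of the 9 genes and by 11166 of the 22202 genes tested. In the same comparison 13.8% of all genes tested were called lower and 18.1% higher (edgeR's quasi-likelihood test, Benjamini-Hochberg adjusted p under 0.05 over 22202 genes). Those calls were 3068 lower and 4023 higher under TMM, and 80 lower and 8088 higher when total reads were used with no scaling factor. The median difference was −0.52 over the 9 genes and 0.20 over all genes. Abundant genes as a class were lower: of the 1013 genes whose mean level reached that of LAMB3 (77.3 CPM), 51.9% were called lower and 1.09% higher, and their median difference was −0.56. The median of the 9 basal genes was therefore no lower than that of genes of similar or higher abundance. In biopsies of whole papillae, fewer basal cells and less of these transcripts per cell cannot be told apart, and neither was tested. Library totals also differed between the diets, and results under other treatments of depth are given below.

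**Figure D1:**
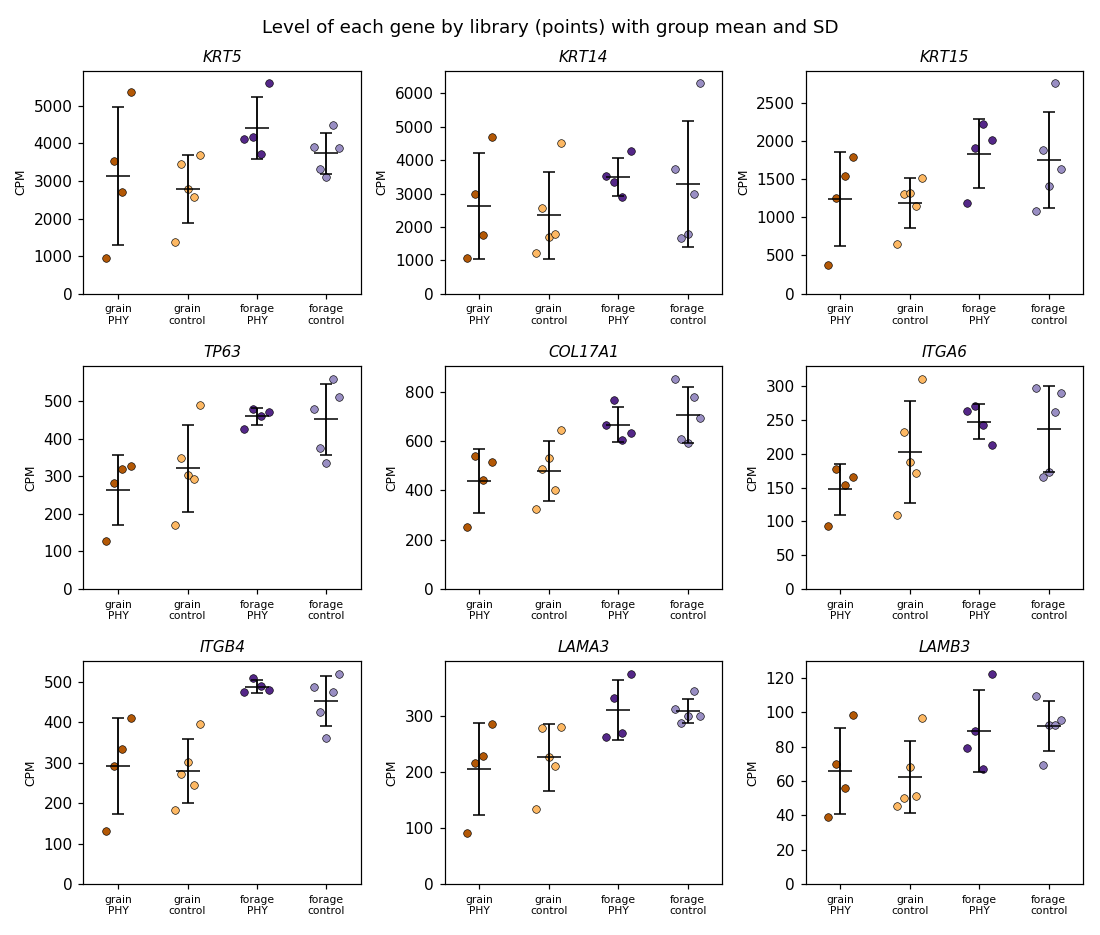
Level of each of the 9 genes in CPM (vertical axes, each starting at 0) in the 18 libraries, by group, with grain groups left of forage groups and PHY left of control within a diet. Points are libraries and the bar is the group mean with its SD; ITGB4 sits at 131 to 411 CPM in grain_PHY and at 475 to 509.7 CPM in forage_PHY.

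ITGB4, the integrin chain whose long cytoplasmic tail binds plectin, had the largest fitted difference of the 9. It stood at 131, 292, 334 and 411 CPM in grain_PHY and at 182, 244, 273, 302 and 397 CPM in grain_control, against 475, 478, 488 and 509.7 CPM in forage_PHY and 360.2, 425, 474, 486 and 519.8 CPM in forage_control. All grain_PHY libraries lay below all forage_PHY libraries, while 1 grain_control library reached into the forage_control range. Over both arms ITGB4 averaged 285 ± 91.7 CPM on grain and 469 ± 48.5 CPM on forage (SD, n = 9 each), which is 1.65-fold lower on grain (log2 difference −0.72 ± 0.21 SE, edgeR adjusted p = 0.0231). The spread also differed, with a coefficient of variation of 32.2% on grain and 10.3% on forage. It was 40.5% in grain_PHY and 3.19% in forage_PHY.

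COL17A1, the transmembrane collagen of the hemidesmosome, stood at 252, 444, 517 and 538.5 CPM in grain_PHY and at 325, 404, 488, 534 and 647 CPM in grain_control, against 604, 636, 665 and 767 CPM in forage_PHY and 592, 609.5, 696, 782 and 855 CPM in forage_control. The PHY groups did not overlap, and 8 of 9 grain libraries lay below the lowest forage library. The means were 461 ± 120.0 CPM on grain and 689 ± 92.7 CPM on forage (SD, n = 9 each). The difference was −0.58 ± 0.20 (SE), or 1.5-fold lower on grain (edgeR adjusted p = 0.0335).

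ITGA6, the partner chain of ITGB4, did not pass over both arms (−0.49 ± 0.21 SE, edgeR adjusted p = 0.0661). It stood at 92.8, 154, 166 and 177 CPM in grain_PHY and at 109.6, 171, 188, 232 and 312 CPM in grain_control, against 214, 242, 264 and 271 CPM in forage_PHY and 165, 173, 262, 289.8 and 297 CPM in forage_control. The PHY groups did not overlap, whereas the highest library of all 18 was grain_control 5. The fitted difference was −0.75 ± 0.31 in PHY cows and −0.23 ± 0.28 in control cows. The difference between those responses was −0.52 ± 0.41 (edgeR adjusted p = 0.954), so it was not shown that the arms differed.

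TP63 fell by 0.65 ± 0.22 (SE) on the log2 scale on grain, or 1.57-fold (edgeR adjusted p = 0.0329). It stood at 127, 283, 319.7 and 328 CPM in grain_PHY and at 171, 294, 303, 348 and 491 CPM in grain_control, against 427, 461, 472 and 480.2 CPM in forage_PHY and 334, 376, 479, 512 and 561 CPM in forage_control. Grain_PHY lay wholly below forage_PHY, and 7 of 9 grain libraries lay below the lowest forage library. The means were 296 ± 104 CPM on grain and 456 ± 68.5 CPM on forage (SD, n = 9 each). The table has 1 row for TP63, so isoforms with and without the transactivation domain are summed in these values.

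None of the 3 basal keratins passed. On grain their coefficients of variation were 44.5% for KRT5, 54.4% for KRT14 and 36.7% for KRT15, and on forage 17.9%, 40.8% and 29.5%. KRT5 stood at 951, 2712, 3526 and 5370.1 CPM in grain_PHY and at 1380.5, 2585, 2778, 3461 and 3698 CPM in grain_control, against 3729, 4127, 4162 and 5597 CPM in forage_PHY and 3099, 3321, 3876, 3915 and 4489.7 CPM in forage_control. The diets overlapped: only 5 of 9 grain libraries lay below the lowest forage library, and grain_PHY 4 was above all forage libraries but 1. The difference was −0.46 ± 0.27 (SE, edgeR adjusted p = 0.165).

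KRT14, the filament partner of KRT5, stood at 1057, 1761, 3001 and 4688 CPM in grain_PHY and at 1209, 1698, 1774, 2565 and 4499 CPM in grain_control, against 2890.0, 3358, 3511 and 4264 CPM in forage_PHY and 1668, 1782, 2998, 3724 and 6299 CPM in forage_control. The forage_control group alone spanned the range of all but 2 of the other libraries, with a coefficient of variation of 57.3%. The difference between diets was −0.45 ± 0.32 (SE, edgeR adjusted p = 0.237).

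KRT15 stood at 373, 1246, 1538 and 1792 CPM in grain_PHY and at 652, 1142, 1298, 1318 and 1509.8 CPM in grain_control, against 1182, 1902, 2016 and 2216 CPM in forage_PHY and 1083, 1405, 1631, 1879 and 2751 CPM in forage_control. All 9 grain libraries lay below the forage median, but 7 of them were within the forage range. The difference was −0.56 ± 0.27 (SE, edgeR adjusted p = 0.0966). In the RefSeq cattle annotation KRT5 stands beside KRT6A, KRT14 beside KRT16 and KRT15 between KRT13 and KRT19. How reads shared by such related keratins were counted is not given in the sources used here. The keratin values may therefore hold shared reads, which was not tested.

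The laminin chain genes missed the threshold narrowly. LAMA3 stood at 91.3, 216, 228 and 285 CPM in grain_PHY and at 134, 209.7, 227, 279 and 281 CPM in grain_control, against 263, 269.9, 333 and 375 CPM in forage_PHY and 287, 299, 300.2, 312 and 344 CPM in forage_control. For this gene the control groups were the ones without overlap, and the PHY groups overlapped through grain_PHY 4. The difference over both arms was −0.52 ± 0.21 (SE, edgeR adjusted p = 0.0526). LAMB3 averaged 63.8 ± 21.5 CPM on grain and 90.7 ± 17.9 CPM on forage (SD, n = 9 each), with 39 to 98.2 CPM (median 55.7) in grain libraries and 66.7 to 122 CPM (median 92.3) in forage libraries. The diets overlapped widely for LAMB3, and the difference was −0.50 ± 0.20 (SE, edgeR adjusted p = 0.0515).

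Within each arm, with all 18 libraries in the fit, edgeR called no gene, neither among the 9 nor elsewhere. In control cows 0% of genes were called in either direction at an adjusted p under 0.05, and 3 of the 9 genes (ITGB4, COL17A1 and LAMB3) were among the 2518 with an unadjusted p under 0.05. All 9 fitted differences were negative there, from −0.70 to −0.23 with a median of −0.49, and the smallest adjusted p was 0.432. DESeq2 and limma voom with quality weights also called none of the 9 in control cows. In PHY cows edgeR again called 0%, with 3 of the 9 genes (TP63, ITGA6 and ITGB4) among the 8820 with an unadjusted p under 0.05. The differences in PHY cows ran from −0.80 for TP63 to −0.42 for KRT14 with a median of −0.60, and the smallest adjusted p was 0.0894. DESeq2 called 2 of the 9 lower in PHY cows, beside 4.85% of all 27270 genes. For limma voom it was 4 of the 9, beside 15.4% of the 22202 genes tested. The count over all genes in PHY cows changed with the libraries fitted: edgeR called 1118 lower and 3235 higher with the 2 PHY groups alone, 482 and 1195 without forage_control 5, and 666 and 762 without grain_control 1, in each case with 0 of the 9 among them. Counted by non-overlap of CPM, 4 of the 9 genes (TP63, COL17A1, ITGA6 and ITGB4) had every grain_PHY library below every forage_PHY library, as did 15.8% of all genes tested. In control cows it was 1 of 9 (LAMA3), against 0.86% of all genes.

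**Figure D2:**
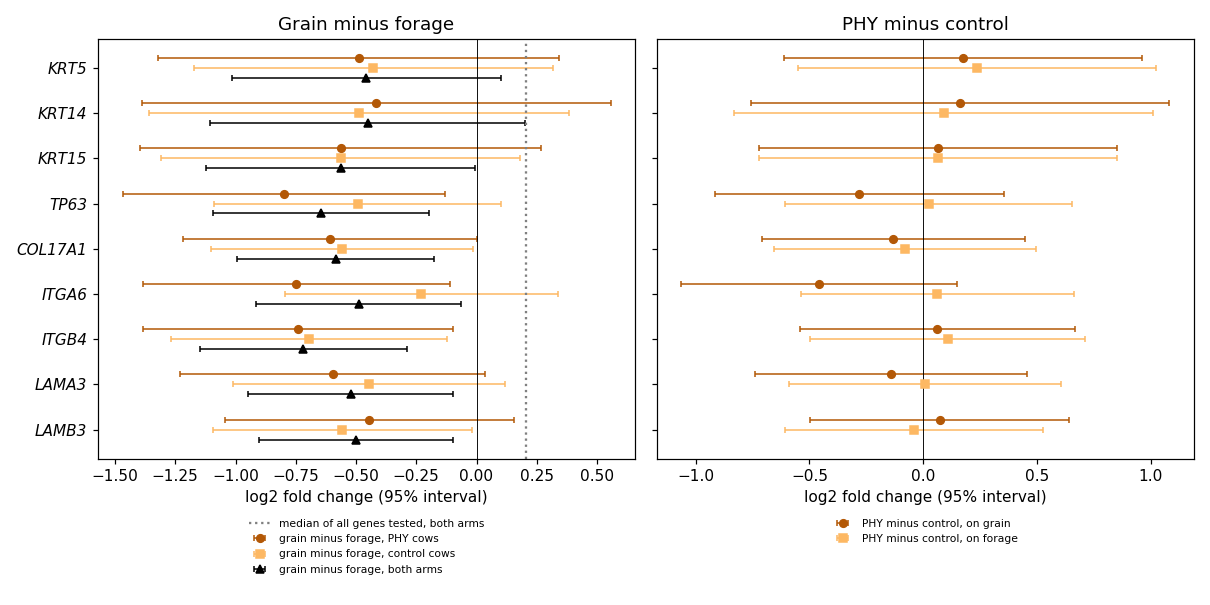
Fitted log2 fold changes of the 9 genes with 95% intervals (horizontal axes): grain minus forage in PHY cows, control cows and both arms (left panel) and PHY minus control on grain and on forage (right panel). All diet estimates lie left of 0 and left of the dotted median of all genes at 0.20, and every PHY minus control interval includes 0.

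The supplement comparison gave no call. For PHY minus control on grain edgeR called 0% of genes and had 571 at an unadjusted p under 0.05, none of them among the 9. The differences on grain ran from −0.46 for ITGA6 to 0.18 for KRT5. For ITGA6 the grain_PHY mean was 148 ± 37.6 CPM (SD, n = 4) and the grain_control mean 203 ± 75.2 CPM (SD, n = 5), with a 95% interval of the log2 difference from −1.06 to 0.15. On forage, PHY minus control again gave 0% called, with 356 genes at an unadjusted p under 0.05 and none of the 9 among them, and differences ran from −0.08 for COL17A1 to 0.24 for KRT5. For ITGB4 the forage_PHY mean was 488 ± 15.6 CPM (SD, n = 4) and the forage_control mean 453 ± 62.0 CPM (SD, n = 5), with an interval from −0.50 to 0.71. DESeq2 and limma voom also called none of the 9 in either supplement comparison. The intervals of all 9 genes on both diets include 0 and are wide: for LAMB3 on forage, with the smallest SE of these fits, the interval ran from −0.61 to 0.53. The interaction, diet response in PHY cows minus diet response in control cows, was also called for 0% of genes by edgeR, with 442 at an unadjusted p under 0.05 and none of the 9 among them. It ran from −0.52 for ITGA6 to 0.11 for LAMB3, and DESeq2 and limma voom called 0 of the 9.

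Ratios of reads between partner genes within a library do not depend on library size or on the scaling factor, and were compared by exact two-sided permutation with adjustment over 10 tests. None passed, and the smallest adjusted p was 0.276. The ratio of ITGB4 to ITGA6 reads was 1.41, 1.65, 2.17 and 2.47 in grain_PHY and 1.17, 1.27, 1.43, 1.61 and 1.66 in grain_control, against 1.80, 1.88, 2.02 and 2.24 in forage_PHY and 1.64, 1.79, 1.81, 2.08 and 2.57 in forage_control. The grain_control libraries held the 2 lowest values. They overlapped forage_control only through its lowest library, while grain_PHY spread over the whole range of forage_PHY and beyond. Grain minus forage was −0.27 on the log2 scale (exact permutation p = 0.0514, adjusted 0.276), made up of −0.46 in control cows and −0.07 in PHY cows.

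The ratio of COL17A1 to ITGB4 reads averaged 1.67 ± 0.23 on grain and 1.48 ± 0.17 on forage (SD, n = 9 each), a log2 difference of 0.17 (exact permutation p = 0.0827, adjusted 0.276). PHY minus control was −0.17 for the same ratio (exact permutation p = 0.0680, adjusted 0.276). The KRT14 to KRT5 ratio averaged 0.846 ± 0.206 on grain and 0.835 ± 0.327 on forage (SD, n = 9 each; exact permutation p = 0.733). The LAMB3 to LAMA3 ratio averaged 0.305 ± 0.073 on grain and 0.292 ± 0.038 on forage (SD, n = 9 each; exact permutation p = 0.717). The chain genes of the keratin filament and of laminin-332 thus kept ratios whose diet difference was smaller than the spread between libraries. KRT15 to KRT14 was the least even, from 0.336 to 0.874 on grain and from 0.259 to 1.13 on forage.

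**Figure D3:**
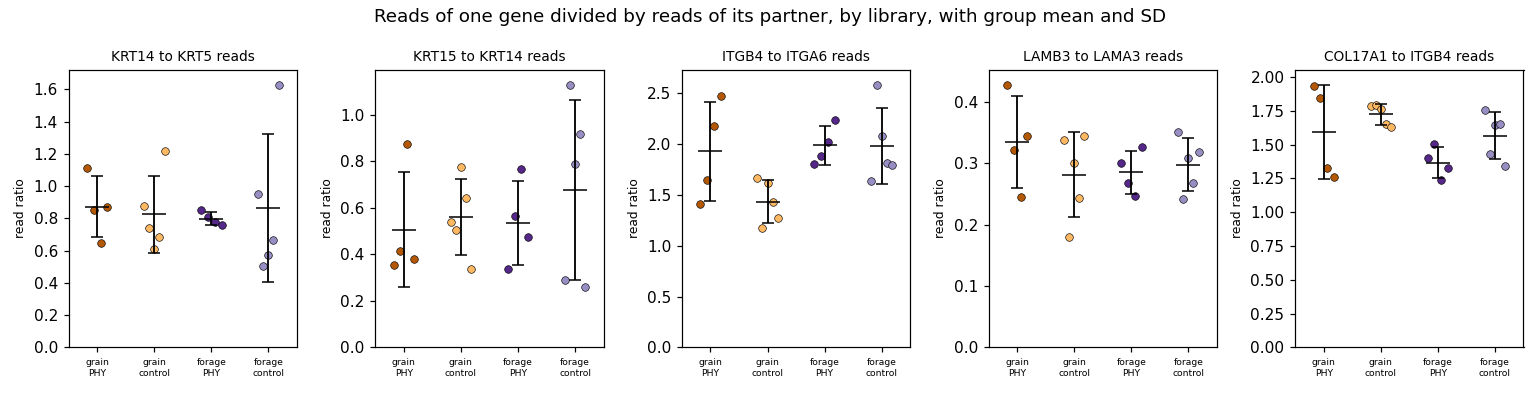
Ratio of the reads of 2 partner genes in each library (vertical axes, each starting at 0) for 5 pairs, by group, with the group mean and SD. For ITGB4 to ITGA6 the 5 grain_control libraries sit between 1.17 and 1.66, and the other 3 groups reach at least 2.24.

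Genes that work with these 9 were described from lists of related genes. Of 7 other hemidesmosome and anchoring genes 4 were called lower on grain, 0 higher and 3 not called, with a median of −0.55. PLEC, the plakin that links ITGB4 to keratin filaments, averaged 1138 ± 398 CPM on grain and 1937 ± 335 CPM on forage (SD, n = 9 each; −0.78 ± 0.24 SE, edgeR adjusted p = 0.0257). FERMT1, the kindlin of keratinocytes, fell by 0.74, the tetraspanin CD151 by 0.68 and the integrin chain ITGA3 by 0.52 on the log2 scale (edgeR adjusted p = 0.0216, 0.0277 and 0.0448). DST, the other plakin, was at −0.40 ± 0.22 (edgeR adjusted p = 0.137).

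Of 19 other basal and p63-linked genes 9 were called lower, 1 higher and 9 not called, with a median of −0.58. SFN, which encodes 14-3-3σ, averaged 306 ± 151 CPM on grain and 596 ± 212 CPM on forage (SD, n = 9 each; −1.0 ± 0.28 SE, edgeR adjusted p = 0.0226). The transcription factors TFAP2A and SOX15 fell by 0.79 and 0.76, and TNS4, a tensin, by 0.60 (edgeR adjusted p = 0.0202, 0.0211 and 0.0244). The 1 gene called higher was PDPN, named here after its value was seen, at 4.50 ± 1.10 CPM on grain and 2.80 ± 1.27 CPM on forage (SD, n = 9 each). Of 13 other basement membrane genes 0 were called lower and 2 higher, with a median of −0.08. FRAS1 and FREM2, which form a complex under embryonic epithelia, were the ones called higher, by 1.42 and 1.33 (edgeR adjusted p = 0.0258 and 0.0382), at means of 17.3 and 11.4 CPM on grain and 6.72 and 4.70 CPM on forage. LAMA5 was at −0.48 (edgeR adjusted p = 0.0514) and HSPG2, perlecan, at −0.47 (edgeR adjusted p = 0.0814). The shares of these lists called lower stand beside 13.8% of all genes and 51.9% of genes as abundant as the 9, and the shares called higher beside 18.1% of all genes.

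Without grain_PHY 1 none of the 3 lists held a call. Of the list genes named, TFAP2A, SOX15, TNS4 and FERMT1 were then at adjusted p = 0.0619, 0.0629, 0.0666 and 0.0629 and passed without any other single library. PLEC and SFN were also lost without forage_PHY 1 (0.0553 and 0.0502), beside 0.0666 and 0.0651 without grain_PHY 1. CD151 was lost without forage_PHY 2, grain_control 1, grain_control 4 or grain_PHY 1 (0.0504 to 0.0719), and FRAS1 without forage_PHY 1, forage_PHY 2, grain_control 1 or grain_PHY 1 (0.0548 to 0.0788). FREM2 was lost in 10 of the 18 leave-outs (0.0539 to 0.112), those of forage_control 1, 4 and 5, forage_PHY 1, 2 and 3, grain_control 1 and 4, and grain_PHY 1 and 2. ITGA3 was lost in 13 (0.0533 to 0.128), those of forage_control 1, 3 and 5, every forage_PHY library, grain_control 1, 2 and 4, and grain_PHY 1, 2 and 3. LAMA5 passed without forage_control 2 (0.0484), forage_control 3 (0.0494), grain_control 5 (0.0376) or grain_PHY 4 (0.0244), and HSPG2 without forage_control 2 (0.0444). In 13 of the 18 leave-outs, those of forage_control 1 and 4, every forage_PHY library, grain_control 1, 2 and 3, and every grain_PHY library, the basal list held 0 genes called higher, so PDPN was not called. It was not called either without the low-count filter. The hemidesmosome list fell to 2 calls without forage_PHY 1, forage_PHY 2, grain_control 1 or grain_control 4. The basal list fell to between 3 and 6 calls without forage_control 1 or 4, forage_PHY 1, 2 or 3, grain_control 1, 2 or 4, or grain_PHY 2. The basement membrane list had 0 calls without forage_PHY 1, forage_PHY 2 or grain_control 1, 4 without forage_control 2, and 1 without forage_control 1, 4 or 5, forage_PHY 3, grain_control 4 or grain_PHY 2. These are all edgeR adjusted p-values, as above.

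Markers of other layers and cell types are given for the same contrast, and their part in the results was not tested. Of the 8 suprabasal genes tested 0 were called lower and 3 higher, and their summed level ran from 1911 to 5590.4 CPM on grain and from 2296 to 8264 CPM on forage. The 3 were scarce: CRNN, KRT1 and DSG1 had means of 7.98, 3.33 and 9.50 CPM on grain and 2.62, 1.09 and 5.11 CPM on forage. Not called were KRT6A (−0.69), IVL (−0.64), SPINK5 (−0.34), KRT10 (−0.12) and KRT4 (1.23, log2 differences). KRT6A, the most abundant, had means of 2872 CPM on grain and 4606 CPM on forage. Of 6 simple-epithelium genes 1 was called lower and 2 higher, with sums of 65.9 to 164 CPM on grain and 98.1 to 200.4 CPM on forage. No fibroblast, endothelial or smooth muscle marker was called (0 of 8, 0 of 7 and 0 of 6). Fibroblast markers summed to between 525 and 2132 CPM on grain and between 245 and 2589 CPM on forage, endothelial markers to between 153 and 328 CPM on grain and between 145 and 390.1 CPM on forage. Smooth muscle markers summed to between 94.2 and 330.0 CPM on grain and between 57.7 and 467 CPM on forage. Of 9 leukocyte markers 3 were called higher and 0 lower, with sums of 49.8 to 77.6 CPM on grain and 46.8 to 67.9 CPM on forage. The leukocyte genes called were ITGAM, CD8A and MS4A1, named after their values were seen, at means of 6.90, 2.93 and 2.49 CPM on grain and 2.65, 0.962 and 0.944 CPM on forage, while PTPRC was at −0.16, CSF1R at −0.06 and CD14 at −0.07 (log2 differences, not called). These counts stand beside 18.1% of all genes called higher, and without grain_PHY 1 edgeR called 0 genes of the whole table lower and 1 higher.

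The 9 genes moved together across libraries. After group means were subtracted, the 36 pairs had a median Pearson r of 0.81 over the 18 libraries, from 0.50 for KRT14 with KRT15 to 0.96 for KRT5 with LAMA3. TP63 followed the mean of the other 8 most closely (r = 0.96) and KRT15 least (r = 0.76). All values of a library share its depth and scaling factor, so these coefficients are descriptions. No r was taken for pairs of other genes, so moving together was not shown to be particular to the 9. Among 9883 other named genes with mean levels of 5 CPM or more, the profile most like the mean of the 9 was that of TRIM28, a transcriptional corepressor (r = 0.97). The next were HUWE1, a ubiquitin ligase (0.97), CTNNA1, α-catenin of the adherens junction (0.96), CASZ1, a zinc-finger transcription factor (0.96) and RALY, an RNA-binding protein (0.96). Without the 3 shallowest libraries these 5 coefficients were 0.84 to 0.88.

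The 2 shallowest libraries had the lowest levels. Grain_PHY 1, the shallowest library, was the lowest of all 18 in 9 of 9 genes, and grain_control 1, the next shallowest, was the next lowest in 9 of 9. Both lay below every forage library in all 9 genes. Grain_control 4, with 9944586 reads, was among the lowest 3 in 4 genes and below every forage library in 6. Grain_PHY 2, with 10597387 reads, was among the lowest 3 in 1 gene and below every forage library in 4. Grain_PHY 4, with 12477701 reads, was among the lowest 3 in 0 genes and below every forage library in 2. The deeper grain libraries did not continue this order. Grain_PHY 3, with 15474334 reads, was below every forage library in 7 genes, and grain_control 3, with 18096203 reads, in 5. For grain_control 5, with 20825008 reads, it was 0 genes, and for grain_control 2, with 23949058 reads, it was 3. The KRT5 (5370.1 CPM) and KRT14 (4688 CPM) levels of grain_PHY 4 were exceeded by 1 library each. The 9 genes together took 0.893% ± 0.192 of all reads on grain and 0.977% ± 0.202 on forage (SD, n = 9 each). The most abundant gene of the table took between 20.7% and 43.85% of a library's reads and the next between 7.84% and 19.7%. Outside these genes the 9 took 1.67% ± 0.43 of the remaining reads on grain and 1.89% ± 0.20 on forage (SD, n = 9 each). The first difference is smaller than the SD of either diet and the second is smaller than the SD on grain but not that on forage, and neither was tested.

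**Figure D4:**
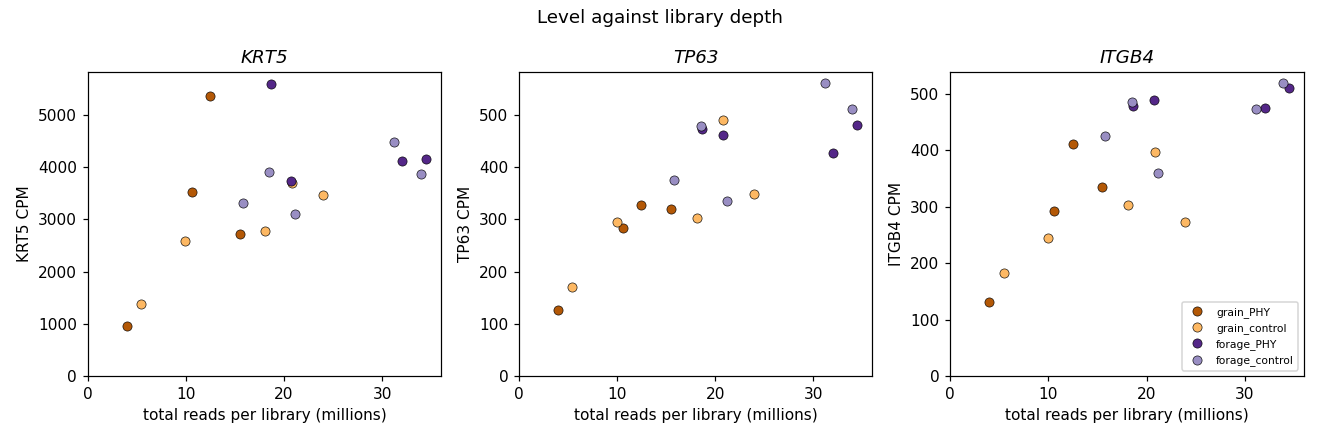
Level in CPM (vertical axis, from 0) of KRT5, TP63 and ITGB4 against total reads (horizontal axis), 1 point per library, coloured by group. The 2 leftmost points, grain_PHY 1 and grain_control 1, are also the 2 lowest in each panel.

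The 3 calls depended on single libraries and on how depth was treated. Without grain_PHY 1 none of the 9 passed, with ITGB4 at −0.56 (edgeR adjusted p = 0.0629), TP63 at −0.49 (0.0858) and COL17A1 at −0.45 (0.0840). ITGB4 passed when any 1 of the other 17 libraries was left out. TP63 was also lost (0.0505 to 0.0614) without forage_control 1, 4 or 5, forage_PHY 1, 2 or 3, or grain_control 1, 2 or 4, and COL17A1 (0.0517 to 0.0698) without forage_control 1, 4 or 5, forage_PHY 1 or 2, or grain_control 1, 2 or 4. ITGA6 passed without forage_control 2 (0.0424), forage_control 3 (0.0465) or grain_control 5 (0.0239). LAMA3 and LAMB3 passed without forage_control 2 (0.0480 and 0.0351), grain_control 5 (0.0342 and 0.0169) or grain_PHY 4 (0.0300 and 0.0219). The number called was thus 1 without forage_control 1, 4 or 5, forage_PHY 1 or 2, or grain_control 1, 2 or 4, it was 6 without forage_control 2 or grain_control 5, and 5 without grain_PHY 4.

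Without the 3 shallowest libraries the median difference of the 9 was −0.27 and none was called, with ITGB4 at −0.45 (edgeR adjusted p = 0.177), COL17A1 at −0.34 (0.193) and TP63 at −0.37 (0.196). In that fit 0 genes of the table were called, and 4136 had an unadjusted p under 0.05. With total reads as library size and no scaling factor all 9 remained negative over both arms, at a median of −0.12, and none was called. That scaling moved the median of all genes to 0.75, so relative to the median gene the 9 were at −0.88, beside −0.73 under TMM and −0.74 under the size factors of DESeq2. When log2 olfactory receptor CPM was a covariate, the median of the 9 was −0.02, and KRT14 (0.55), KRT5 (0.24), ITGA6 (0.10) and KRT15 (0.006) changed sign, none of them called. The covariate itself differed between the diets, with a grain to forage ratio of 3.0, so this fit cannot tell it apart from diet. With all libraries thinned to 3953060 reads none was called and ITGB4 was at −0.57 (edgeR adjusted p = 0.0651). In the other direction DESeq2 called 6 of the 9 and limma voom with quality weights called 8, all lower on grain, and in limma voom KRT15 was the exception (−0.32, adjusted p = 0.179). DESeq2 called 10.8% of all 27270 genes lower, and limma voom 19.7% of 22202. DESeq2 was run without the low-count filter, so these shares are over unlike sets of genes. The share among genes as abundant as the 9 was not taken for these 2 fits.

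**Figure D5:**
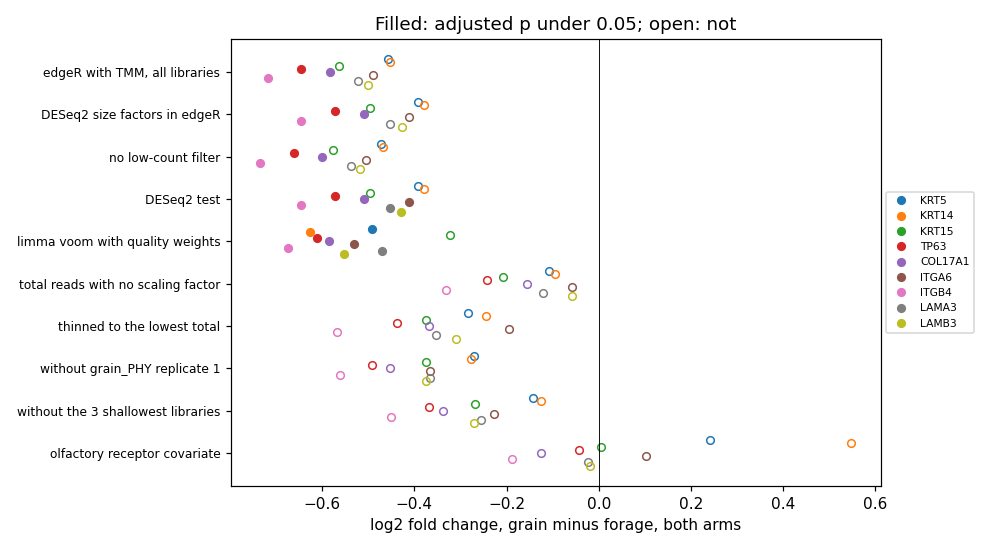
Log2 fold change of each of the 9 genes for grain minus forage over both arms (horizontal axis) under 10 ways of processing the counts (rows); filled points have an adjusted p under 0.05. Filled points number 3 in the first row, 6 with DESeq2, 8 with limma voom and 0 in the 5 lowest rows.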

How the data were processed

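The authors deposited whole-number read counts per Ensembl gene with a gene name beside each identifier. The submitters' processing notes name bcl2fastq 2.20, DESeq2 without a version, and the build bosTau9. RNA was extracted with a column kit and libraries were made from total RNA with a stranded SMART-Seq kit, per the labels' protocols. Aligner, counter, annotation and use of strand: not given in the sources used here, so overlapping or near-identical genes may share reads. The deposited normalized table was not used.

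Counts were tested with edgeR 4.0.16 (R 4.3.3): filterByExpr by group, TMM, 1 mean per group, robust quasi-likelihood F test over all 18 libraries, Benjamini-Hochberg within each of 6 contrasts, called under 0.05. The biological coefficient of variation was 51.4%. DESeq2 1.42.0 and limma 3.58.1 were alternatives. Read ratios had 0.5 added to each count. The edgeR script was tested on simulated data. The members and lists were chosen with earlier results of these data known. Named from the lists were up to 4 genes with the smallest p over both arms, plus PLEC and DST; 1 item is not reported here. KRT13 and LOR of the marker lists were not analysed here. RefSeq's cattle table, of another assembly, matched 9 of 9 genes by symbol and gave only neighbour names.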

Additional observations from a re-analysis of the deposited data

Results flagged for a closer look

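The ratio of KRT15 to KRT14 reads in grain_PHY 3 was 0.874, while the other 3 grain_PHY libraries lay between 0.353 and 0.415. Its gap to the nearest library of its group is larger than expected of groups of 4. It was the 1 such value among 56 groups checked, and chance alone gives about 1 in 20 groups. The value lies within the forage_control range of 0.259 to 1.13.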

How the results depend on the processing

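No paired analysis was possible because no label links a library to its cow. Over both arms 3 of the 9 genes were called, against 6 with DESeq2, 8 with limma voom, 3 with DESeq2's size factors in edgeR or without the low-count filter, and 0 with the olfactory receptor covariate, with thinning, with total reads (chosen after seeing the data) or without the 3 shallowest libraries. In PHY cows 0 were called, against 2 with DESeq2 and 4 with limma voom. Leaving out 1 library at a time gave 0 to 6 calls over both arms and 0 in each of the other 5 contrasts. Over all genes the same comparison gave 3068 lower and 4023 higher with edgeR, 2319 and 4302 with DESeq2's size factors, 2953 and 6579 with DESeq2, 4373 and 5754 with limma voom, 80 and 8088 with total reads, 38 and 110 with thinning, and 0 in both directions with the covariate (1032 at an unadjusted p under 0.05) or without the 3 shallowest libraries (4136). Leaving out single libraries gave 0 to 4273 lower and 1 to 5367 higher, the lowest without grain_PHY 1. In PHY cows edgeR called 0 genes of all, against 1322 lower and 4062 higher with DESeq2, 3419 and 4476 with limma voom, 1118 and 3235 with edgeR fitted to the 2 PHY groups alone, 482 and 1195 without forage_control 5, and 666 and 762 without grain_control 1. In these last 3 fits 0 of the 9 were called.

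The following signs changed, and none of these values was called under the setting named. With the olfactory receptor covariate, log2 differences over both arms were 0.241 for KRT5, 0.548 for KRT14, 0.006 for KRT15, 0.102 for ITGA6, 0.0343 for CD151, 0.101 for DST, 0.0551 for HSPG2 and −0.316 for FREM2. In control cows they were 0.104 for KRT5, 0.314 for KRT14 and 0.189 for ITGA6, and in PHY cows 0.378 for KRT5, 0.781 for KRT14, 0.132 for KRT15, 0.0148 for ITGA6, 0.0422 for LAMA3 and 0.174 for LAMB3. With total reads ITGA6 in control cows was at 0.218, KRT5 at 0.0069 and LAMA3 at 0.0006. Without the 3 shallowest libraries ITGA6 was at 0.0327 in control cows, the log2 read ratio KRT14 to KRT5, PHY minus control, was at −0.0203, and the log2 read ratio LAMB3 to LAMA3, grain minus forage, was at −0.0355. The cause was not tested.

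Leaving out 1 library at a time moved the KRT14 to KRT5 ratio between −0.0148 and 0.197 for diet and between −0.0218 and 0.190 for PHY, KRT15 to KRT14 between −0.253 and 0.0175 for diet, and LAMB3 to LAMA3 between −0.0123 and 0.127 for diet. No ratio passed in any of these.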
